A study of Drosophila melanogaster with 12 samples.

Results

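The genes described here are the accessory gland protein (Acp) and seminal fluid protein (Sfp) genes of *Drosophila melanogaster*. They were taken by symbol: of the 14323 genes in the deposited table, 47 had a symbol of Acp or Sfp followed by a digit, 19 of them Acp and 28 Sfp. 2 of the 47, *Acp1* and *Acp65Aa*, are adult cuticle protein genes whose symbols share the prefix, which leaves 45 that are named for the gland or the seminal fluid. The sex peptide gene, an accessory gland peptide gene listed under the symbol *SP*, is not among them.

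The male accessory glands are paired secretory organs with a single layer of epithelial cells inside a muscle sheath. Main cells make up nearly all of that epithelium, and a smaller group of secondary cells lies at the distal tip. Both secrete peptides and proteins that pass to the female with the sperm, where members of this set are known to act on ovulation, sperm storage and egg laying. Many are short secreted peptides of unknown biochemical function, and others are protease inhibitors or lectins.

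RNA was measured in 12 libraries of glands from virgin males at day 10, 3 for each of 4 genotypes and 80 to 100 pooled glands for each library. All 4 genotypes carried hs-flp12, the Act>CD2>gal4 flip-out cassette, UAS-GFP(nls) and UAS-P35, an inhibitor of apoptosis, in a y, w background, and were reared at 25°C with a heat shock of 20 min at 37°C after eclosion. The control had nothing further, YkiWT added wild-type *yki*, Yki*+Dp added an activated form of this Hippo pathway coactivator, altered at the 3 positions that its label lists, with Dp and E2F1 transgenes, and Myc+E2f/Dp added E2F1, Dp and dMyc. The comparisons ask how the glands' own secretory genes are expressed once these growth regulators are on. The study states that the Yki*+Dp line had lost efficient E2f induction, hence its name. The heat shock switches the transgenes on in a part of the gland cells, and glands were picked for a wide GFP signal, so each library mixes cells with and without the transgenes. The actin driver also acts in other tissues. In such bulk samples fewer expressing cells cannot be told apart from less RNA per cell.

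The labelled tissue was checked by sex peptide and its network, whose 12 genes summed to 22019.6 to 35010.2 TPM over the 12 libraries. The transgene transcripts were checked against the labels. *Dp* and *yki* were high in Yki*+Dp, and *E2f1*, *Dp* and *Myc* in Myc+E2f/Dp, but *E2f1* ran from 18.5 to 22.8 TPM in Yki*+Dp against 16.5 to 21.2 in control although the label lists it. *yki* also ran from 55.9 to 175 TPM in Myc+E2f/Dp, whose label lists no *yki* transgene, against 14.2 to 16.5 in control and 70.5 to 163 in YkiWT. The study reports a rise of *yki* in Myc+E2f/Dp glands as well. TPM, the number of transcripts of a gene among 1000000, corrects for transcript length and sums to the same total in every library, and the files do not give read numbers, so depth is unknown. 6902 to 8120 genes reached 1 TPM in each library. Levels below are TPM as deposited. Fold changes are log2 differences of TPM rescaled between libraries by the median of ratios over 6633 genes, plus 1, and were tested with limma over all 8128 genes with at least 1 TPM in 3 libraries or more. A gene was called, and is said to have risen or fallen, at an adjusted p below 0.05 where the log2 fold change was also 1 or more in either direction.

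In control glands these genes spanned the whole range of expression. 6 had a mean of 10000 TPM or more, 21 had 1000 or more and 36 had 100 or more, while 8 were under 1 TPM. 18 were among the 100 most abundant genes of control and 2 among the 10 most abundant. Together the 47 genes took up 16.1% ± 0.417 (SD, n = 3) of the TPM of a control library. Listed by their control mean, 31 of the 46 neighbouring pairs overlapped between libraries, so those neighbours did not differ beyond their spread.

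**Figure D1:**
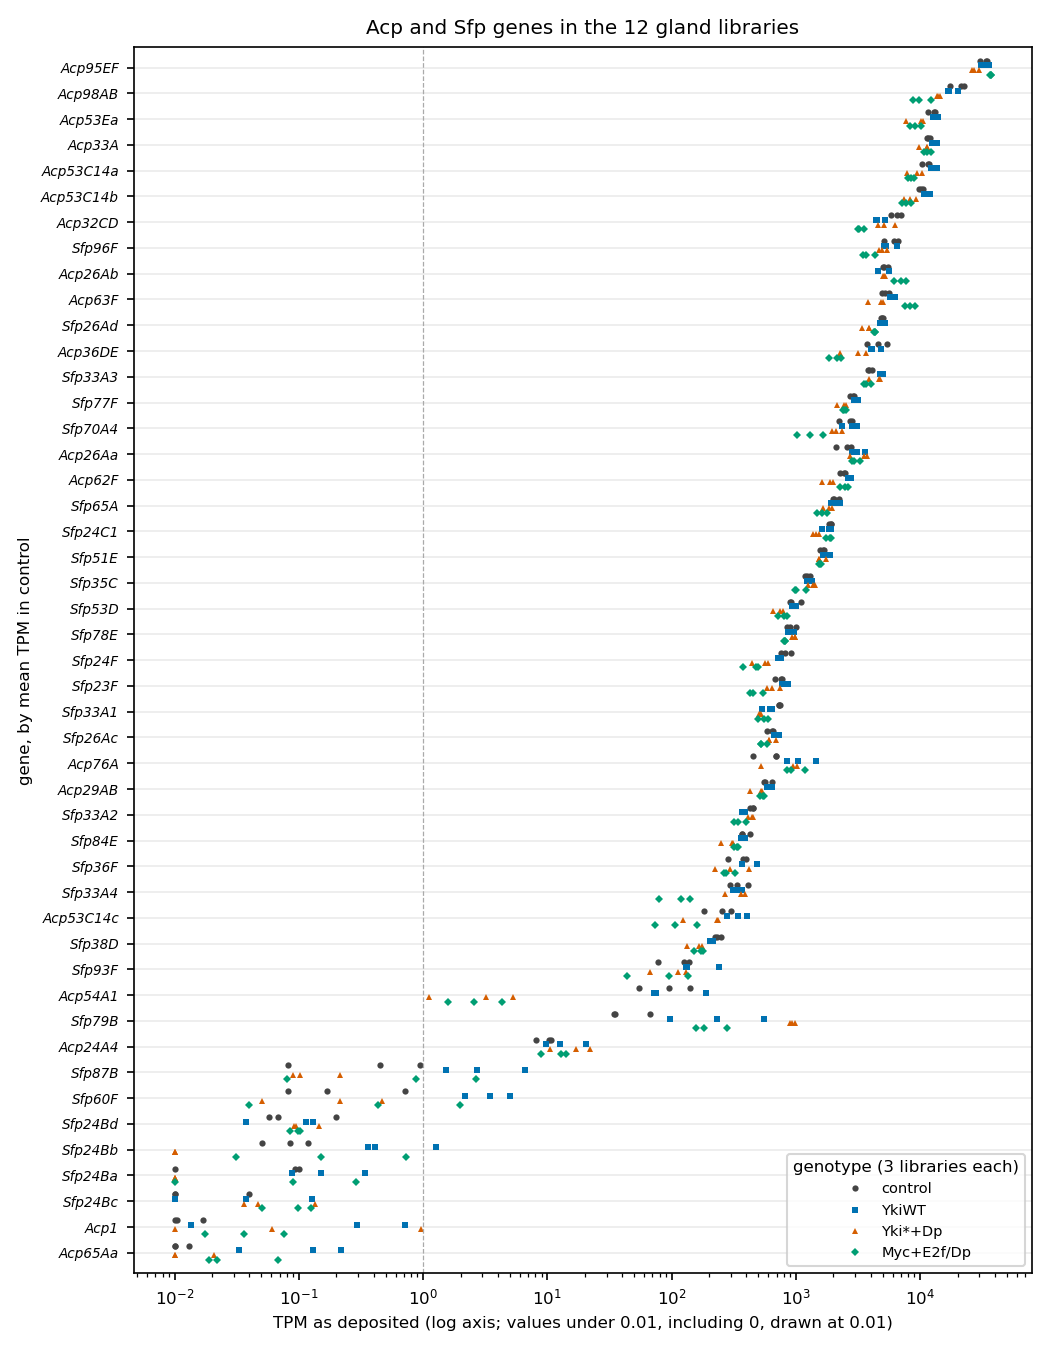
TPM as deposited of the 47 genes (horizontal log axis) in each of the 12 libraries, with the genes ordered by their control mean and 1 marker shape for each genotype. *Acp95EF* sits at the top with a control mean of 32963 TPM, the markers of *Acp54A1* split by genotype, and the 8 lowest genes lie left of the dashed line at 1 TPM in control.

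The most abundant member was *Acp95EF*, a peptide of 52 residues encoded on chromosome 3R from 24228975 to 24229279 (BDGP6). It had 34473, 30399 and 34018 TPM in the 3 control libraries, 32645, 30842 and 35652 in YkiWT, 27215, 26244 and 29639 for Yki*+Dp and 37197, 37268 and 36759 for Myc+E2f/Dp. As deposited, the Myc+E2f/Dp libraries were the highest and the Yki*+Dp libraries the lowest of the 12. After rescaling the log2 fold change was -0.65 (standard error 0.14, adjusted p = 0.002) for Myc+E2f/Dp, against 0.17 before it, so the direction turned with the scale and the gene was not called. *Acp98AB*, which encodes 25 residues and is the shortest protein of the set, had 21372, 17300.0 and 22707 TPM in control and 12250.5, 9744 and 8737 in Myc+E2f/Dp, with no overlap. The next 4, *Acp53Ea*, *Acp33A*, *Acp53C14a* and *Acp53C14b*, had control means of 12506, 11671, 11182 and 10137 TPM, and in this order each overlapped the following one of the 4 in the control libraries. The neighbours *Acp53Ea*, *Acp53C14a* and *Acp53C14b* had 10209.9, 9093 and 8251, 8892, 8426 and 8021 and 8433, 7699 and 7098 TPM in Myc+E2f/Dp, all below their control libraries of 12901, 13135 and 11483, 11702, 11466 and 10379.6 and 10468, 10114 and 9829. Their log2 fold changes were -1.27, -1.22 and -1.21, with adjusted p of 8.88e-05, 4.61e-05 and 4.95e-05. The 6 most abundant genes held 61.5% ± 1.34 (SD, n = 3) of the summed TPM of the set for control and 60.6% ± 0.198 (SD, n = 3) for Myc+E2f/Dp.

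At the other end, the 4 *Sfp24B* genes and the 2 cuticle genes did not reach 1 TPM in 3 libraries and were not tested. The *Sfp24B* genes lie side by side on chromosome 2L from 3667977 to 3670581, overlapping *Drgx* on the other strand. *Sfp24Bb* reached 1.28 TPM in 1 YkiWT library, and *Sfp24Ba*, *Sfp24Bc* and *Sfp24Bd* stayed at or under 0.344 TPM in all 12. *Acp1* reached 0.970 TPM at most and *Acp65Aa* 0.219 TPM. The other 41 members were tested, 17 Acp and 24 Sfp. 2 of these, *Sfp60F* and *Sfp87B*, reached 1 TPM in 4 libraries only, all 3 of YkiWT and 1 of Myc+E2f/Dp, so their place among the tested genes rests on the group where they are high.

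Set against these 16.1% of control, the genes took up 16.5% ± 0.740 (SD, n = 3) of the TPM of a YkiWT library. The figure was 13.5% ± 0.977 (SD, n = 3) for Yki*+Dp and 13.9% ± 0.747 (SD, n = 3) for Myc+E2f/Dp. All libraries of Yki*+Dp and of Myc+E2f/Dp lay below all control libraries, a difference of -2.60 and -2.20 percentage points. With 3 libraries against 3 an exact two-sided permutation test cannot go below 0.1, and it gave that value for both (0.15 after adjustment over the 3 comparisons) and p = 0.5 for YkiWT. This share needs no rescaling between libraries.

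In Myc+E2f/Dp glands 25 of the 41 tested members fell and 1 rose, where 5.94% of all tested genes fell, 7.15% rose and 13.1% did either. The members that fell include the most abundant peptide genes of the *Acp53* cluster, *Acp98AB* and the sperm storage gene *Acp36DE*. The median log2 fold change of the members was -1.05, against 0.05 over all tested genes. 35 members had all 3 scaled libraries below all 3 control libraries (31.3% of all tested genes). Without rescaling, 5 members were called lower and 1 higher (1.33% and 28.8% of all tested genes), and the medians became -0.23 for the members and 0.74 for all genes. Rescaling multiplies all genes of a library by the same factor, so it moves both medians by nearly the same amount. The gap between them is thus no test of the scale. The number of members that fell depended on the scale.

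Of the 17 tested Acp genes 8 fell, with a median of -0.94, and of the 24 Sfp genes 17 fell and 1 rose, with a median of -1.08. The members that fell ran from *Acp54A1* at -5.29 to *Sfp26Ad* at -1.02. *Sfp77F* and *Sfp26Ac*, at -1.03 and -1.02, lay just past the fold threshold, and *Sfp78E* and *Acp29AB*, at -0.99 and -0.94, just short of it. The 17 tested members not described one by one below are all Sfp genes with control means of 114 to 4931 TPM. All 17 had their scaled libraries below control in Myc+E2f/Dp, from *Sfp23F* at -1.46 to *Sfp24C1* at -0.84, and 13 of them fell. The 4 that were not called were *Sfp78E*, *Sfp33A3* (-0.88), *Sfp51E* (-0.88) and *Sfp24C1*. By abundance, 12 of the 21 members with 1000 TPM or more in control fell (median -1.03) and 13 of the 20 below that level (median -1.11).

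**Figure D2:**
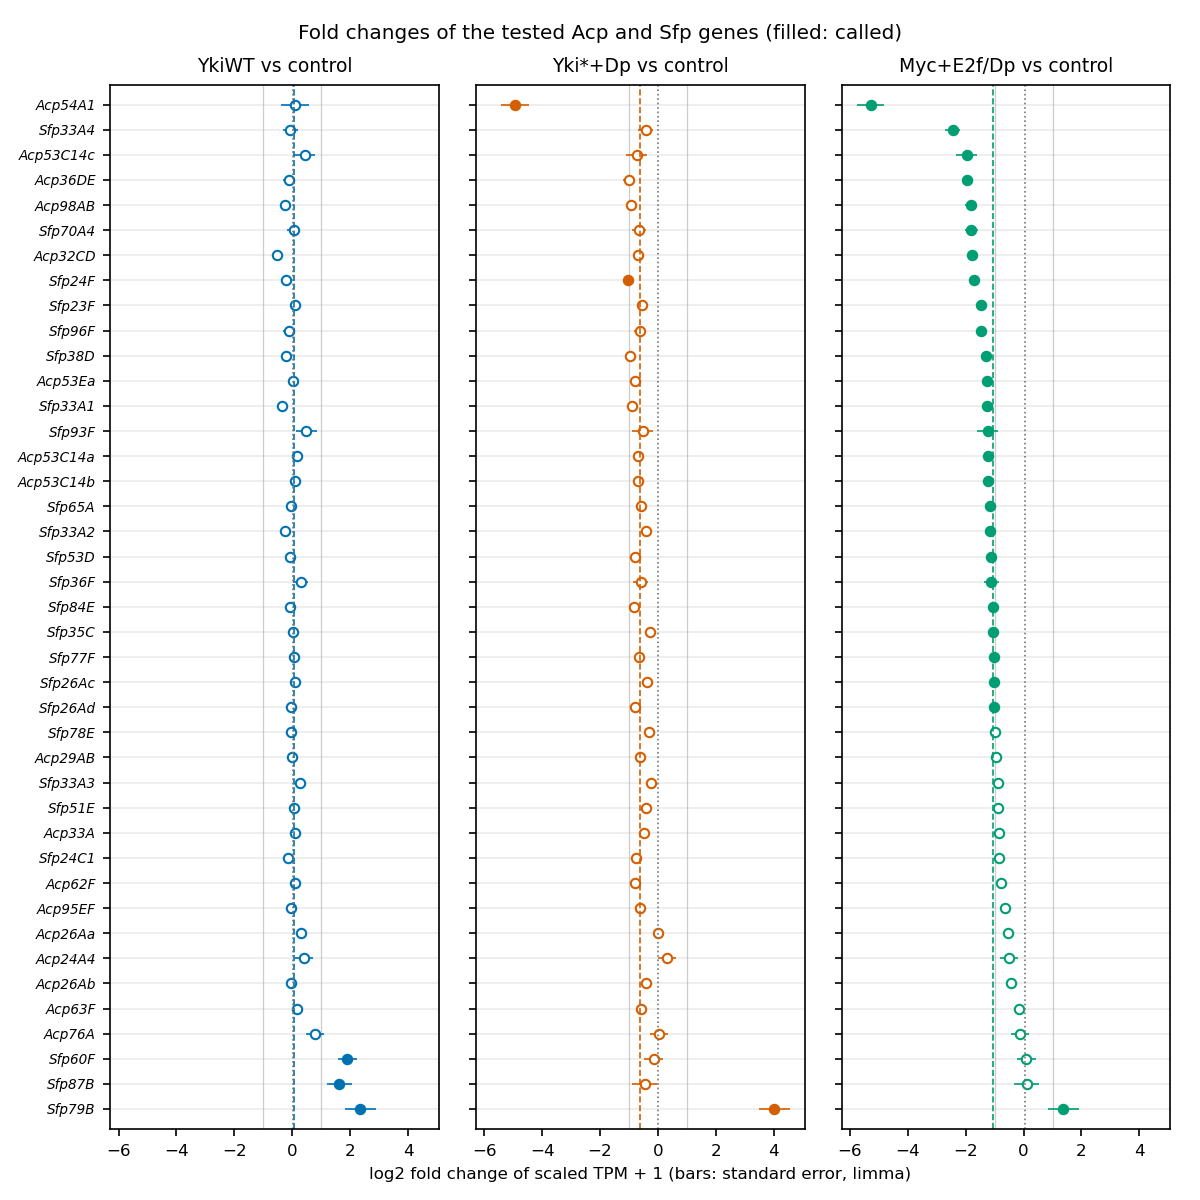
Log2 fold changes against control of the 41 tested members (horizontal axis, bars for standard errors) in YkiWT, Yki*+Dp and Myc+E2f/Dp, with filled points for called genes, a dashed line at the members' median and a dotted line at the median of all tested genes. The dashed line moves from 0.04 in YkiWT to -0.63 in Yki*+Dp and -1.05 in Myc+E2f/Dp, and *Acp54A1* and *Sfp79B* stand far from it on either side.

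*Acp36DE*, on chromosome 2L from 18356047 to 18359028, encodes a large glycoprotein of 912 residues that is needed for sperm storage in mated females. It had 4565, 5419 and 3753 TPM in control and 2304, 2148 and 1829.7 in Myc+E2f/Dp, without overlap, and fell by a log2 fold change of -1.94 (standard error 0.20, adjusted p = 1.27e-05). On the deposited scale the change was -1.12, still past the threshold. In Yki*+Dp it had 3174, 2268 and 3649.7 TPM, again below all control libraries, and its log2 fold change of -0.99 (standard error 0.20, adjusted p = 0.00271) ended just short of a call. It passed without control replicate 3 (-1.12), Yki*+Dp replicate 1 (-1.06) or Yki*+Dp replicate 3 (-1.14). The YkiWT libraries, at 4051, 4107 and 4836 TPM, overlapped control.

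Ovulin, the product of *Acp26Aa*, stimulates ovulation in the mated female. Its gene had 2598, 2802 and 2114 TPM in control, 3122, 2848 and 3614 in YkiWT, 3516, 2729.9 and 3707 for Yki*+Dp and 3276, 2839 and 2912 for Myc+E2f/Dp. The deposited values of Myc+E2f/Dp were all above control, while after rescaling they were all below it at -0.55 (standard error 0.17, adjusted p = 0.0156), so the direction rests on the scaling and the gene was not called. *Acp26Ab*, which encodes a small secreted peptide and lies 20 bases downstream of ovulin's gene on chromosome 2L, had 5060.5, 5523 and 5144 TPM in control and 6141, 7066 and 7656 in Myc+E2f/Dp, with a log2 fold change of -0.42 (standard error 0.10, adjusted p = 0.00445) after rescaling and 0.40 before. Neither of the pair was called against control in any genotype.

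Among the protease inhibitors, *Acp62F*, which encodes a trypsin inhibitor-like protein, had 2447, 2489 and 2276 TPM in control, 2002, 1617 and 1866 for Yki*+Dp and 2626, 2481 and 2263 for Myc+E2f/Dp. The fold changes of -0.78 (standard error 0.14, adjusted p = 0.00106) and -0.79 (standard error 0.14, adjusted p = 5.06e-04) stayed under the threshold, and in Myc+E2f/Dp the libraries overlapped control as deposited. The serpin gene *Acp76A* had 692, 694 and 448 TPM in control, 1041, 845 and 1439 in YkiWT, 949, 527 and 1019 for Yki*+Dp and 1183, 917 and 842 for Myc+E2f/Dp. The YkiWT libraries lay above all control libraries at 0.80 (standard error 0.31, adjusted p = 0.137), which did not pass the test, and the other genotypes overlapped control after rescaling. *Acp29AB*, a lectin gene linked to sperm competition, ran from 424 to 644 TPM over all 12 libraries and was not called in any genotype, with -0.94 (standard error 0.12, adjusted p = 5.85e-05) in Myc+E2f/Dp.

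*Acp54A1* showed the largest fall of the set. This intronless gene on chromosome 2R from 17133445 to 17133750 encodes 46 residues. It had 54.2, 94.5 and 141 TPM in control and 71.5, 189 and 74.7 in YkiWT, but 5.34, 1.11 and 3.19 for Yki*+Dp and 2.55, 4.34 and 1.58 for Myc+E2f/Dp. The 6 low libraries were all more than 10-fold under the lowest of the other 6. The log2 fold change was -4.93 (standard error 0.48, adjusted p = 1.86e-05) for Yki*+Dp and -5.29 (standard error 0.48, adjusted p = 4.08e-06) for Myc+E2f/Dp, and 0.10 (standard error 0.48, adjusted p = 0.914) in YkiWT. Both falls held under all 21 alternative settings of the fit, with -4.57 and -4.64 on the deposited scale, and the direct difference between Yki*+Dp and YkiWT was -5.03 (standard error 0.48, adjusted p = 5.54e-05). Between Myc+E2f/Dp and Yki*+Dp the difference was -0.36 (adjusted p = 0.55), and their libraries overlapped.

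Among the 6 markers of the ejaculatory duct and bulb, which join the glands, *Est-6* had the largest falls in Yki*+Dp and Myc+E2f/Dp. It had 34.6, 153 and 87.4 TPM in control, 69.0, 178 and 81.6 in YkiWT, 23.5, 36.5 and 12 for Yki*+Dp and 8.44, 26.9 and 49.6 for Myc+E2f/Dp. The fold changes of *Est-6* were -2.16 in Yki*+Dp and -2.52 in Myc+E2f/Dp, both called, although its libraries overlapped control as deposited. *EbpIII* was called lower in both (-1.05 and -1.58) and *Dup99B* (-0.78 and -1.34) in Myc+E2f/Dp only. *Gld* (-1.04 and -0.46), *Ebp* (-0.18 and 0.11) and *EbpII* (-0.40 and 0.08) were called in neither. Over the 6 duct and bulb markers in the table the summed level was 328 to 747 TPM in control, 637 to 1144 in YkiWT, 192 to 589.7 for Yki*+Dp and 169 to 675 for Myc+E2f/Dp, and 2 of 6 were called lower for Yki*+Dp and 3 of 6 for Myc+E2f/Dp. The part of duct tissue in the fall of *Acp54A1* was not tested.

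*Sfp79B* moved the other way. It is an intronless gene on chromosome 3L from 22080322 to 22080554 that encodes 35 residues. It had 66.7, 35.1 and 34.4 TPM in control, 231, 96.8 and 549.6 in YkiWT, 977, 890.3 and 928 for Yki*+Dp and 280.0, 158 and 181 for Myc+E2f/Dp. The 3 Yki*+Dp libraries were the highest and the 3 control libraries the lowest of the 12, and YkiWT and Myc+E2f/Dp overlapped between them. The log2 fold change was 4.02 (standard error 0.53, adjusted p = 1.52e-04) in Yki*+Dp, where it was called under all 21 settings. In YkiWT it was 2.34 (standard error 0.53, adjusted p = 0.0184) and in Myc+E2f/Dp 1.38 (standard error 0.53, adjusted p = 0.0412). *Sfp79B* was the 1 member that rose in all 3 genotypes.

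The rises in YkiWT and Myc+E2f/Dp were less firm. The call in YkiWT was lost without control replicate 2 (2.13), control replicate 3 (2.19) or YkiWT replicate 1 (2.31). The call in Myc+E2f/Dp held under 11 of 21 settings. Those that ended it included fits without any 1 Myc+E2f/Dp or Yki*+Dp replicate, YkiWT replicate 1, control replicate 2 or control replicate 3. Values ran from 1.08 to 1.55 in those fits without a library. The nearest coding gene, *msopa*, lies 2165 bases away and had 4121, 3218 and 2891 TPM in control and 12486, 10123 and 12195 in Yki*+Dp, also without overlap. Its log2 fold change there was 1.39 (adjusted p = 4.80e-04), and in Myc+E2f/Dp it was 0.37 (adjusted p = 0.161). *msopa* was singled out after its values were seen.

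**Figure D3:**
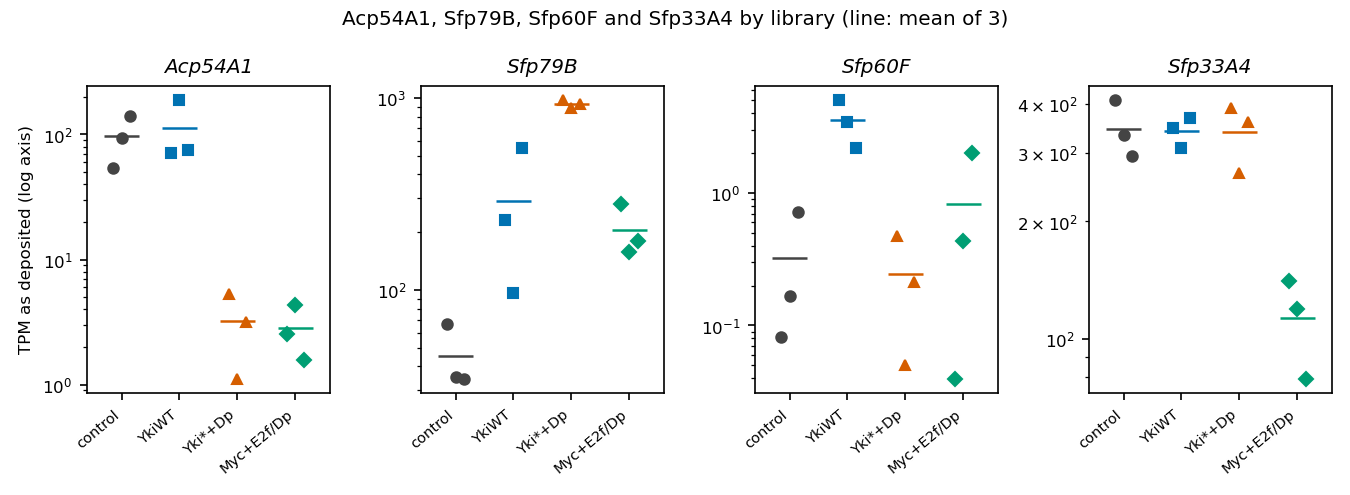
TPM as deposited (vertical log axis, its range set for each gene) of *Acp54A1*, *Sfp79B*, *Sfp60F* and *Sfp33A4* in each library, with a line at the mean of the 3 libraries of a genotype. *Acp54A1* is low in Yki*+Dp and Myc+E2f/Dp, *Sfp79B* is high in Yki*+Dp, *Sfp60F* is high in YkiWT, and *Sfp33A4* is low in Myc+E2f/Dp alone.

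Further members were called against control in Myc+E2f/Dp alone. *Sfp33A4*, an intronless gene for 50 residues on chromosome 2L from 11837243 to 11837486, had 409, 333 and 294 TPM in control, 347, 309 and 368 in YkiWT, 391, 266 and 359 for Yki*+Dp and 141, 119 and 79.1 for Myc+E2f/Dp. Its log2 fold change of -2.44 (standard error 0.26, adjusted p = 1.51e-05) in Myc+E2f/Dp held under all 21 settings. The direct difference from Yki*+Dp, -2.02 (standard error 0.26, adjusted p = 6.84e-05), was called in all 21 as well. *Acp53C14c* had 301, 255 and 183 TPM in control and 159, 107 and 73.8 in Myc+E2f/Dp and fell by a log2 fold change of -1.96 (standard error 0.36, adjusted p = 6.77e-04). *Acp32CD* had 5843, 6501 and 7063 TPM in control and 3238, 3504 and 3138 in Myc+E2f/Dp, a change of -1.79 (standard error 0.14, adjusted p = 1.47e-06). In YkiWT *Acp32CD* was also below all control libraries, at 5206, 4470.1 and 4394 TPM, and its log2 fold change of -0.52 (standard error 0.14, adjusted p = 0.0394) was under the fold threshold.

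*Acp98AB* fell by a log2 fold change of -1.82 (standard error 0.20, adjusted p = 1.80e-05) in Myc+E2f/Dp, and *Sfp70A4*, which encodes 55 residues, by -1.80 (standard error 0.23, adjusted p = 5.27e-05). *Sfp70A4* had 2711, 2203 and 2843 TPM in control and 1640.2, 1302 and 1022 in Myc+E2f/Dp, without overlap. *Sfp96F* fell from 6617, 5155 and 6132 TPM to 4351, 3698 and 3461, also without overlap, at -1.46 (standard error 0.19, adjusted p = 5.29e-05). *Acp33A* and *Acp63F* were not called. *Acp33A* had 11974, 11636 and 11403 TPM in control and 12151, 11305 and 10720.3 in Myc+E2f/Dp, which overlap as deposited, and after rescaling the change was -0.86 (standard error 0.14, adjusted p = 3.39e-04). *Acp63F* had 5588, 5246 and 4888 TPM in control and 9052, 8276 and 7513 in Myc+E2f/Dp, higher in every library as deposited (0.66) and overlapping after rescaling at -0.16 (adjusted p = 0.414).

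Rescaling cannot alter how the set's own RNA is divided among its genes. *Acp95EF* held 20.5% ± 0.977 (SD, n = 3) of the summed TPM of the set for control and 26.8% ± 1.28 (SD, n = 3) for Myc+E2f/Dp. *Acp63F* went from 3.26% ± 0.183 to 5.96% ± 0.237 and *Acp26Ab* from 3.27% ± 0.234 to 5.04% ± 0.815 (SD, n = 3). *Acp98AB* went the other way, from 12.7% ± 1.58 to 7.35% ± 0.898, as did *Acp36DE*, from 2.85% ± 0.563 to 1.51% ± 0.101 (SD, n = 3). For these 5 genes the libraries of Myc+E2f/Dp and control did not overlap, so the members changed by unequal amounts. In Yki*+Dp the same shares stayed closer to control, with 20.6% ± 1.09 for *Acp95EF*, 3.39% ± 0.254 for *Acp63F* and 10.5% ± 0.748 for *Acp98AB*. *Acp36DE* held 2.23% ± 0.386 there, and these genes overlapped control. *Acp26Ab*, at 3.81% ± 0.249, still lay above all control libraries.

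**Figure D4:**
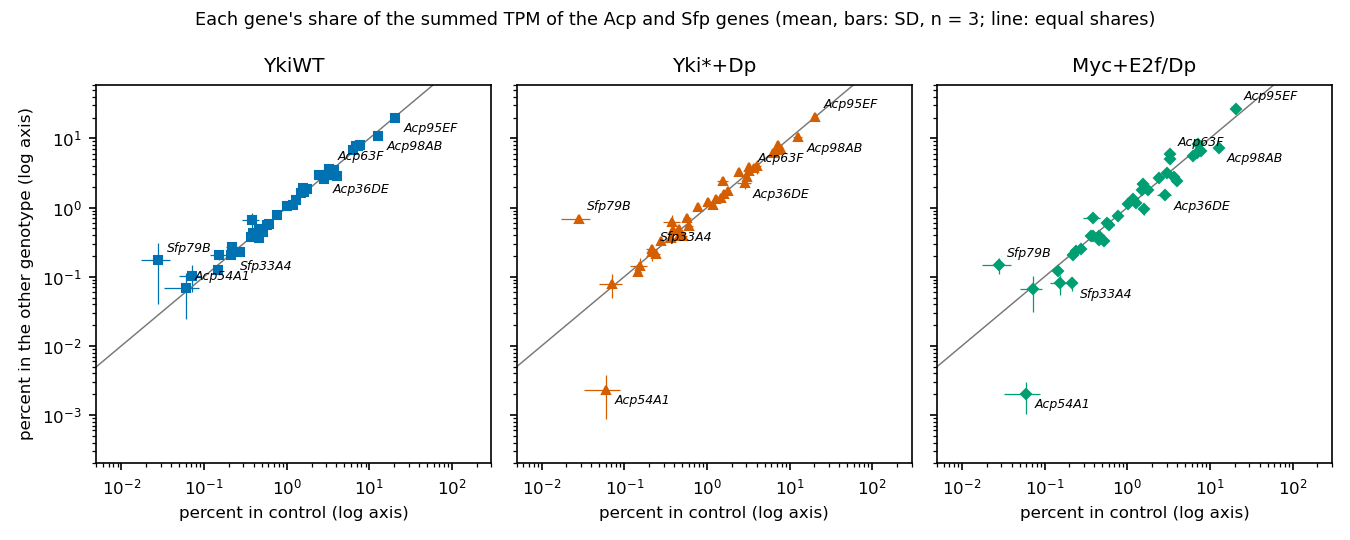
Share of each member in the summed TPM of the set (both axes in percent, log scale; mean with SD bars, n = 3) in YkiWT, Yki*+Dp and Myc+E2f/Dp against control, with the diagonal marking equal shares and the least abundant members left out. *Acp54A1* drops far below the diagonal in Yki*+Dp and Myc+E2f/Dp, *Sfp79B* lies above it in all 3 panels, and *Acp95EF* rises to 26.8% in Myc+E2f/Dp.

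In Yki*+Dp glands 2 of the 41 tested members fell and 1 rose, where 1.46% of all tested genes fell, 5.52% rose and 6.99% did either. The members that fell were *Acp54A1* and *Sfp24F*, and the member that rose was *Sfp79B*. Smaller shifts were common: 30 members had all scaled libraries below control (24.7% of all tested genes), 28 had an adjusted p below 0.05 and were lower (18.2%), and the median was -0.63 against -0.00 over all tested genes. As deposited the medians were -0.25 and 0.30. *Sfp24F* had 823, 911 and 762 TPM in control and 560.0, 441 and 592 in Yki*+Dp, without overlap, at -1.04 (standard error 0.17, adjusted p = 5.58e-04), and lost its call without control replicate 1 (-0.99) or Yki*+Dp replicate 2 (-0.89). It also fell in Myc+E2f/Dp, at -1.71 (standard error 0.17, adjusted p = 7.16e-06). Without Yki*+Dp replicate 1 or replicate 3 the number called was 5 in place of 3 (7.08% and 7.58% of all tested genes).

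4 members had a positive log2 fold change in Yki*+Dp. Besides *Sfp79B* these were *Acp26Aa* (0.02), *Acp76A* (0.03) and the scarce *Acp24A4* (0.30), which had 10.4, 10.8 and 8.07 TPM in control and 22.0, 10.5 and 16.9 in Yki*+Dp. All 3 overlapped control. In Myc+E2f/Dp 3 members had a positive value, *Sfp79B* and the near-silent *Sfp87B* (0.12) and *Sfp60F* (0.09), which again overlapped control.

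In YkiWT glands 3 members rose and 0 fell, where 1.88% and 0.246% of all tested genes did, and 2.13% did either. limma gave 6 members an unadjusted p below 0.05, the 3 that rose among them. The share of all tested genes at that cut was not worked out, so the 6 cannot be judged against it. The median was 0.04, against 0.01 over all tested genes. The 3 were *Sfp79B*, *Sfp60F* and *Sfp87B*, and since the last 2 were tested only because of their level in this group, their values are a description. Without them 1 of 39 members rose. *Sfp60F* had 0.0817, 0.168 and 0.720 TPM in control, 5.04, 3.43 and 2.19 in YkiWT, 0.470, 0.0505 and 0.213 for Yki*+Dp and 0.0394, 0.431 and 1.99 for Myc+E2f/Dp. *Sfp87B* had 0.0820, 0.453 and 0.937, 6.60, 2.71 and 1.52, 0.0892, 0.103 and 0.216 and 0.0800, 0.875 and 2.66 in the same order of groups. Both were near 0 in Yki*+Dp, above every control library in YkiWT and high in 1 Myc+E2f/Dp library, replicate 3.

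The log2 difference between YkiWT and control was 1.90 for *Sfp60F* and 1.63 for *Sfp87B*, given with no test. Without control replicate 2 or YkiWT replicate 1 the number of members called was 1 (2.02% and 1.87% of all tested genes). This count takes in *Sfp60F* and *Sfp87B*, and *Sfp79B* was not called in either fit. *Sfp87B* overlaps *svp* on the same strand, so the split of reads between them is uncertain.

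*Sfp60F* lies 872 bases from *EbpII*, which encodes a protein of the ejaculatory bulb. *EbpII* had 0.208, 0.860 and 1.19 TPM in control, 7.75, 5.78 and 3.83 in YkiWT, 0.339, 0.223 and 0.75 for Yki*+Dp and 0.130, 1.05 and 4.45 for Myc+E2f/Dp, and *Ebp*, another bulb gene, had 2.47, 1.27 and 0.481 in YkiWT and at most 0.278 in control. *Ebp*, *EbpII*, *Sfp60F*, *Sfp87B* and the untested *Sfp24Bb* were thus all highest in YkiWT replicate 1 and, within Myc+E2f/Dp, in replicate 3. The other 4 duct and bulb markers did not share the first of these. *EbpIII* had 41.8, 29.9 and 46.6 TPM in YkiWT, highest in replicate 3, and 10.8, 8.39 and 10.9 in Myc+E2f/Dp, nearly level. *Dup99B* had 512, 919 and 608 TPM in YkiWT and 146, 329 and 598 in Myc+E2f/Dp, and like *Est-6* and *Gld* it was highest in replicate 2 within YkiWT and in replicate 3 within Myc+E2f/Dp. *Ebp* (1.05) and *EbpII* (2.06) were the 2 of 6 duct and bulb markers called higher in YkiWT, where 1.88% of all tested genes were. *Ebp* passed the filter only with its YkiWT libraries, so its value is a description. The part of bulb tissue in the levels of these scarce members was not tested.

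Compared directly, Myc+E2f/Dp and Yki*+Dp differed at 5 members, all lower in Myc+E2f/Dp, where 5.52% of all tested genes were lower, 5% higher and 10.5% either. These were *Sfp79B* (-2.64), *Sfp33A4* (-2.02), *Acp53C14c* (-1.23), *Sfp70A4* (-1.15) and *Acp32CD* (-1.12). The median over the members was -0.54, against -0.02 over all tested genes. The number was 8 without Myc+E2f/Dp replicate 1 or Yki*+Dp replicate 2 (9.31% and 10.2% of all tested genes). It was 3 without Myc+E2f/Dp replicate 3 (8.93%) and 2 without rescaling (2.87% lower and 10.3% higher over all tested genes). *Acp53C14c*, whose libraries overlapped, lost its call without Yki*+Dp replicate 1 (-1.06) or Myc+E2f/Dp replicate 3 (-0.89), and *Sfp70A4* without Myc+E2f/Dp replicate 3 (-0.91). Between Yki*+Dp and YkiWT 4 members were called lower and 1 higher (1.55% and 2.47% of all tested genes, 4.02% either way), with a median of -0.68. The 4 were *Acp54A1* (-5.03), *Sfp87B* (-2.08), *Sfp60F* (-2.05) and *Acp53C14c* (-1.17), and *Sfp79B* was higher (1.68). *Sfp60F* and *Sfp87B* again stand here only through their level in YkiWT, and without them 2 of 39 members were lower and 1 higher. Without YkiWT replicate 1 or Yki*+Dp replicate 2 the number was 3 (3.8% and 3.25% of all tested genes). The call of *Sfp79B* was lost without YkiWT replicate 1 (1.70), YkiWT replicate 2 (1.02) or any 1 Yki*+Dp replicate (1.62 to 1.74). That of *Acp53C14c* was lost without YkiWT replicate 1 (-1.13), YkiWT replicate 3 (-1.04) or Yki*+Dp replicate 2 (-0.83). These comparisons share libraries with those against control.

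The members are scattered over the autosomes, 24 on chromosome 2L, 8 on 2R, 9 on 3L and 6 on 3R. 17 of them lie in 5 clusters with gaps under 10000 bases. The largest holds *Sfp53D*, *Acp53C14a*, *Acp53C14b*, *Acp53Ea* and *Acp53C14c* on chromosome 2R from 16744295 to 16751495, and the 4 Acp genes in it are related in sequence. In control their levels ran from 246 TPM for *Acp53C14c* to 12506 for *Acp53Ea*. All 5 fell in Myc+E2f/Dp, 4 of them at log2 fold changes of -1.11 to -1.27 and *Acp53C14c* at -1.96. In the cluster of *Sfp33A4*, *Sfp33A2* and *Sfp33A3*, within 3087 bases, the Myc+E2f/Dp changes were -2.44, -1.15 and -0.88, so near neighbours did not move by the same amount.

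The proteins are short, 25 to 912 residues with a median of 100, and 23 of the 47 are under 100 residues. 14 genes have 1 exon and 29 have 2 in their most abundant transcript. 6 members have a main transcript under 250 bases, where the correction for transcript length is least certain. Their median in Myc+E2f/Dp was -1.63, with 4 lower and 1 higher. The 35 longer ones had a median of -1.04, with 21 lower and 0 higher. Of all tested genes 5.94% were lower and 7.15% higher.

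The transcript table adds the 3′ ends. 19 members have 2 or more listed transcripts, and in 16 of them all transcripts encode the same protein. In 13 members at least 2 ends were expressed and could be compared. The share of the transcript with the furthest 3′ end was above all control libraries in Myc+E2f/Dp for 7 of the 13 and below them for 1, where 19.4% and 19.7% of 1660 genes did so. In Yki*+Dp it was above for 4 and below for 1 (11.7% and 17.3%), and in YkiWT above for 3 and below for 1 (12.9% and 6.81%). The transcripts are nested, so kallisto had to divide shared reads between them, and how firmly it did so is not shown by the tables.

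Among these, *Acp53C14b* is shown in full. Its second transcript, FBtr0345493, runs 91 bases further at the 3′ end. It had 3.75, 3.83 and 3.67 TPM in control and 2.77, 3.70 and 2.96 in YkiWT, but 147, 105 and 79.9 for Yki*+Dp and 46.2, 71.7 and 90.2 for Myc+E2f/Dp. The control and YkiWT libraries were all under 4 TPM and the other 6 each more than 10-fold above them, while the gene as a whole was lower in both genotypes. As a share of the gene this was 0.0370% ± 0.00110 in control, 1.32% ± 0.322 for Yki*+Dp and 0.917% ± 0.362 for Myc+E2f/Dp (SD, n = 3 each). The extended transcript of its neighbour *Acp53C14a*, 226 bases longer, went from 2.68% ± 0.10 to 2.89% ± 0.0414 and 4.0% ± 0.315 (SD, n = 3).

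*Sfp53D*, in the same cluster, has a form 243 bases longer at the 3′ end, with 11.8% ± 0.122 of its TPM in control, 15.2% ± 0.698 in YkiWT, 17.8% ± 1.93 for Yki*+Dp and 18.2% ± 1.40 for Myc+E2f/Dp (SD, n = 3). All 9 libraries of the other genotypes lay above control. *Sfp70A4* likewise had more of its longer form in all 3 genotypes, with the highest mean in YkiWT (20.8% ± 2.27 against 12.6% ± 0.489 in control; SD, n = 3). *Acp26Ab* moved the other way. Its shortest form, FBtr0342618, held 60.9% ± 0.875 of its TPM in control, 70.3% ± 4.45 for Yki*+Dp and 67.5% ± 2.58 for Myc+E2f/Dp and was 55% ± 3.18 in YkiWT (SD, n = 3), with no overlap with control in any of them. *Sfp78E* differs at the start and in its protein: the form for 150 residues held 49.2% ± 0.843 in control, 54.1% ± 1.62 for Yki*+Dp and 54.6% ± 0.313 for Myc+E2f/Dp (SD, n = 3).

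**Figure D5:**
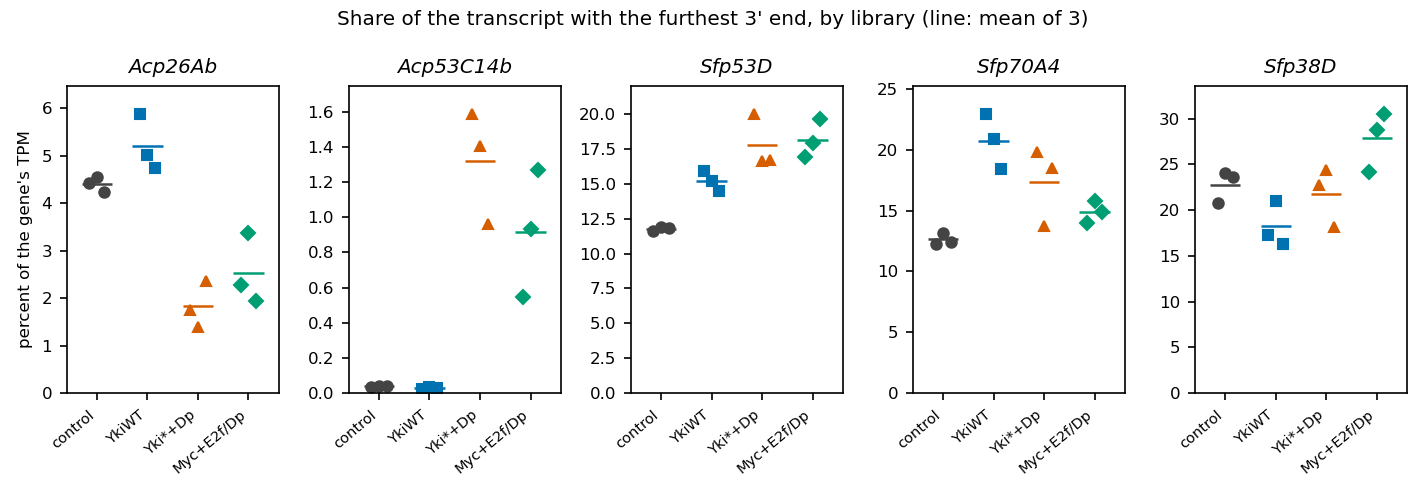
Share of the transcript with the furthest 3′ end in the TPM of *Acp26Ab*, *Acp53C14b*, *Sfp53D*, *Sfp70A4* and *Sfp38D* (vertical axis in percent, from 0, its range set for each gene) in each library, with a line at the mean of 3. The extended form of *Acp53C14b* is near 0 in control and YkiWT and reaches 1.59% in a Yki*+Dp library, while that of *Acp26Ab* is below control in Yki*+Dp and Myc+E2f/Dp.

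Other seminal fluid genes, listed apart from the Acp and Sfp symbols, were tested alongside. Of 26 tested seminal fluid genes of other families 18 fell and 1 rose in Myc+E2f/Dp (median -1.17), 3 fell and 3 rose in Yki*+Dp (-0.74), and 0 fell and 3 rose in YkiWT (0.11). Of 10 tested genes of sex peptide and its network 5 fell in Myc+E2f/Dp, among them *SP* itself (-1.34), and limma called 0 in Yki*+Dp and 0 in YkiWT, where 10 and 4 had an unadjusted p below 0.05. Of 8 tested regulators of the gland, such as the transcription factor gene *prd*, limma called 0 in any of the 3 genotypes, with 5 at an unadjusted p below 0.05 in Myc+E2f/Dp, 3 in Yki*+Dp and 1 in YkiWT. The share of all tested genes at that unadjusted cut was not worked out beside these counts. The summed level of 6 secondary cell markers was 8291 to 9282 TPM in control, 6143 to 7374 in YkiWT, 6860.0 to 8991 for Yki*+Dp and 4591 to 5168 for Myc+E2f/Dp, where 3 of the 6 fell. These 3, *lectin-46Ca*, *lectin-46Cb* and *CG17575*, hold nearly all of this sum. They are also among the 5 genes of the sex peptide network that fell, so the 2 lists are not separate observations. The summed level of 11 muscle sheath markers was, in the same order, 455 to 563, 565 to 697, 812 to 942 and 379 to 583 TPM, with 6 of 10 tested lower in Myc+E2f/Dp. 13 testis markers summed to 6.84 to 85.3 TPM over the 12 libraries, and 5 fat body, 6 hemocyte and 5 neuron markers to at most 2.11, 20.9 and 14.1 TPM. None of these markers was at 0 in all 12 libraries. The part of these cell types in the members' changes was not tested.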

How the data were processed

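Per the authors' methods and the labels, poly-A RNA was made into TruSeq stranded libraries, reads were trimmed with cutadapt 1.18 and quantified with kallisto and sleuth against an Ensembl BDGP6.28 transcript set of genome build BDGP6. The authors deposited TPM, transcript abundances scaled to a fixed library total, for 14323 genes and 31089 transcripts in 12 libraries. The kallisto version, its options and its strand setting are not given in the sources used here. Each library sums to 1000000 TPM, transcript sums matched gene values within 3.64e-12 TPM, and libraries of a genotype had correlations of about 0.99 at the lowest. TPM keeps no read depth, so no counting interval or detection limit is given.

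TPM were multiplied by median-of-ratios factors (0.645 to 1.36, from the 6633 genes at or above 1 TPM in all libraries), 1 was added and log2 taken. limma 3.58.1 in R 4.3.3 (4 group means, trended variance, Benjamini-Hochberg over all 8128 genes with at least 1 TPM in 3 libraries) gave every fold change and adjusted p. A gene was called at an adjusted p under 0.05 and a log2 fold change of 1 or more. The rescaling assumes that the median gene is level; as deposited, the median log2 fold change over all tested genes was 0.74 for Myc+E2f/Dp while it was 0.30 for Yki*+Dp. The p-values set each difference against 1 spread per gene, pooled over the 3 libraries of each of the 4 genotypes. Leaving out a library of 1 genotype can thus alter calls between the others. The share of TPM was compared by exact permutation (scipy 1.17.1). The fit was tested on simulated data with 200 changed genes.

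The members and gene lists were chosen with earlier results of these data known. Members given library by library were the 10 most abundant in control, up to 6 called members a comparison with the largest change, 12 symbols listed by role, and those moving against the members' median. *msopa* and the transcripts shown were chosen after their values were seen. Coordinates, protein and transcript lengths come from the BDGP6.54 annotation, and no sequence was used here. Alternatives were other scalings, pseudocounts, filters, fits and fold thresholds, and leaving out each library.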

Additional observations from a re-analysis of the deposited data

How the results depend on the processing

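Of 120 log2 fold changes of 24 named members, 29 were called, and 0 called values reversed. 13 of the 29 kept their call under every alternative that tested the gene. *Sfp60F* and *Sfp87B* passed the main filter through YkiWT and were not tested with a filter of 5 TPM. In Yki*+Dp against YkiWT both were called in the 20 alternatives that tested them, which stands as a description. Of the 29 calls of named members, TPM as deposited ended 13, scaling by the 75th percentile 2 and the replicate block 1 (*Sfp87B* in YkiWT). Without rescaling the number of members called in Myc+E2f/Dp against control went from 26 to 6 (30.1% of all tested genes) and the median to -0.23, the median in Yki*+Dp went to -0.25, and Myc+E2f/Dp against Yki*+Dp had 2 called (13.2%) and a median of -0.10 and Yki*+Dp against YkiWT a median of -0.35. With 75th percentile scaling 19 were called in Myc+E2f/Dp against control in place of 26 (13.2% of all tested genes). It gave 5 in Yki*+Dp (6.82% of all tested genes) and 3 in Myc+E2f/Dp against Yki*+Dp (10.3%). A threshold of 0.5 log2 gave 24 of 41 in Yki*+Dp (20.4% of all tested genes), 20 in Myc+E2f/Dp against Yki*+Dp (28.2%) and 27 in Yki*+Dp against YkiWT (13.7%). In YkiWT a filter of 5 TPM left 1 (2.14% of all tested genes), as did a fit of only the groups compared (1.98%), and with no filter Yki*+Dp against YkiWT had 3 (2.14%). The cause was not tested.

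Leaving out each library gave 18 to 26 called in Myc+E2f/Dp (9.58% to 14% of all tested genes). It gave 2 to 5 in Yki*+Dp (6% to 7.58%) and 1 to 3 in YkiWT (1.65% to 2.27%). Myc+E2f/Dp against Yki*+Dp had 3 to 8 (8.79% to 10.9%) and Yki*+Dp against YkiWT 3 to 6 (3.25% to 4.31%). The counts that involve YkiWT take in *Sfp60F* and *Sfp87B*, which passed the filter through that group. The lowest count in Myc+E2f/Dp, 18, came with the lowest share, 9.58%. The medians ran from -1.13 to -0.94 in Myc+E2f/Dp, -0.73 to -0.50 in Yki*+Dp and -0.03 to 0.11 in YkiWT.

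The replicate numbers were not shown to pair the libraries, as same-numbered libraries correlated at -0.313 to 0.515. With the replicate block 26, 3 and 2 members were called in Myc+E2f/Dp, Yki*+Dp and YkiWT against control (13.2%, 7% and 2.05% of all tested genes). It gave 5 in Myc+E2f/Dp against Yki*+Dp (10.6%) and 6 in Yki*+Dp against YkiWT (4.1%). Depth is unknown, which limits the members under 1 TPM most.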
